A study of Mus musculus with 9 samples.

Results

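The control libraries of the bi, B and L populations of Comma-1D, a mouse mammary epithelial cell line, give the state of the cells without MYC or Her2. They are 3 of the 9 libraries of the series, chosen by their control label, and each is 1 library from 1 sorted population. B cells were sorted as Sca-1 high and EpCAM low, L cells as Sca-1 low and EpCAM high, and bi cells as high for both surface proteins. The other 6 libraries hold the same populations after transduction with MYC or with Her2 (the product of Erbb2), both described in the labels as activated, and they enter here only as other sets of B, L and bi in which the control pattern was looked up. All 9 came from cells kept in DMEM:F12 with 2% fetal calf serum, 5 ng/mL epidermal growth factor, 10 µg/mL insulin and 50 µg/mL gentamicin. The labels do not say whether the control cells carried an empty vector, or which of the named RNA kits (RNeasy Micro or miRVana) served which sample. A sorted population of 1 line is not a mammary gland, and the letters B, L and bi are used below only as names of the sort gates.

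The mammary duct has an inner and an outer layer of epithelium. Luminal cells line the duct, hold tight junctions and E-cadherin, and express Krt8 and Krt18, while basal or myoepithelial cells lie on the basement membrane, express Krt5, Krt14 and Trp63, and contract through smooth muscle actin. Comma-1D cultures contain cells of more than one of these kinds. Sca-1, the product of Ly6a, and EpCAM, an epithelial surface glycoprotein, are used to sort them.

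The 3 control libraries held 54.0 M (B), 75.4 M (L) and 98.9 M (bi) estimated reads, within the 46.9 to 98.9 M of all 9, and ribosomal-RNA loci took 12.5% to 13.1% of them. Levels below are in CPM, reads scaled to a common library size after TMM scaling (the trimmed mean of M-values, which equalises libraries on the bulk of their genes). Of 54281 genes listed, 15161 reached 1 CPM in at least 1 of the 3 controls and were kept. A difference was counted when it reached 2-fold in log2 CPM with a prior count of 2 reads. With 1 library of each kind there was no replicate error and no test, so every ratio compares libraries, and the 95% intervals printed (exact binomial) cover counting error only. The comparisons of bi with B and of bi with L share the bi library. In RNA from many cells, fewer cells of a type and less RNA per cell cannot be told apart.

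The genes of the sort and of the oncogenes were read first. Epcam stood at 0.788 CPM (B), 412 (L) and 326 (bi), so bi was close to L. Ly6a stood at 59.6 CPM (B), 6.59 (L) and 17.8 (bi), and the bi library, sorted as Sca-1 high, therefore carried 1.43 log2 more Ly6a RNA than L but 1.74 log2 less than B. Both genes encode gated proteins, so their differences describe the sort. Myc RNA (117 CPM in B, 84.1 in L, 89.7 in bi) and Erbb2 RNA (55.0, 89.7 and 79.8) lay within 2-fold of each other in the 3 controls.

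Markers of immune cells, adipocytes, glia and endothelium were low, and fibroblast markers were not. None of the 6 immune, 4 adipocyte or 4 glial and neural crest markers was kept, with summed levels of 0.765 to 1.15 CPM for the immune list (Adgre1 without a read), 1.14 to 1.42 CPM for the adipocyte list and 0.734 to 1.32 CPM for the glial list. Of 5 endothelial markers Pecam1 alone was kept, at 4.25 CPM (B), 1.96 (L) and 3.29 (bi). The 8 fibroblast markers summed to 115 CPM (B), 20.1 (L) and 28.8 (bi), 6 of them kept, with Col1a1, a fibrillar collagen, at 37.5 CPM (B), 1.99 (L) and 11.4 (bi), and with Lum at 0.062 CPM or less and Fap at 0.118 or less in all 3. Of the pericyte list Rgs5 and Notch3 were kept. The part of such cells in the differences below was not tested.

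Basal keratins did not separate the gates. Krt5 stood at 1468 CPM (B), 2172 (L) and 2241 (bi), and Krt14 at 1519, 1139 and 1496. Trp63, which encodes p63, stood at 623 CPM (B), 360 (L) and 344 (bi). These defining basal genes were thus high in all 3 libraries and within 2-fold of each other. Over the 13 basal markers the summed level was 5573 CPM (B), 5950 (L) and 6769 (bi). Of the 12 kept 1 was 2-fold or more higher (all genes 10.1%) and 4 lower (10.4%) in L than in B. The luminal markers separated the libraries: all 11 were 2-fold or more higher in L than in B (all genes 10.1%) and in bi than in B (8.92%). Their summed level was 13.7 CPM (B), 1102 (L) and 601 (bi). Even so Krt8, a keratin that defines luminal cells, reached only 5.94 CPM in L, against 0.0916 in B and 0.517 in bi.

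Which genes separated B from L, and where did bi stand? L was 2-fold or more higher than B at 1531 genes (10.1% of 15161) and lower at 1583 (10.4%), and bi was higher than B at 1352 (8.92%) and lower at 1512 (9.97%). Between bi and L 362 genes (2.39%) were higher in bi and 394 (2.6%) lower, so 756 genes (4.99%) separated bi from L where 2864 (18.9%) separated it from B and 3114 (20.5%) separated L from B. With DESeq2's size factors, which move the median of bi against B by 0.13 log2, the share of higher genes in bi against B was 58.0% in place of 47.2%. The B library was the one that stood apart: it was 2-fold or more above both others at 1100 genes and below both at 1170, L at 301 and 322, and bi at 26 and 54.

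The 10 genes furthest higher in L than in B were far higher in bi than in B as well, and 8 of them were less than 2-fold lower in bi than in L. The exceptions were Sostdc1, higher in bi, and Grm8, a glutamate receptor, with no read in B, 15.1 CPM in L and 5.03 in bi. Esrp1, an epithelial splicing regulator, stood at 0.128 CPM (B), 204 (L) and 152 (bi). Wfdc2, a secreted protease inhibitor among the 10 furthest higher in bi than in B, stood at 0.33, 180 and 167 CPM. Krt79, a keratin, had no read in B and 29.8 CPM in L and 24.3 in bi, which is at least 542-fold higher in L and at least 441-fold higher in bi when B is set to 3 reads. Shroom2, an actin-binding regulator of cell shape, stood at 0.0733, 47.8 and 32.0 CPM. Kcnk1, Rps6ka6, Snrpn and Tmem54 had 1 read each in B and 23.2 to 48.8 CPM in L, with 18.5 to 33.0 CPM in bi, and Armcx4 had none in B, 14.3 CPM in L and 7.34 in bi. Snrpn shares its locus with overlapping transcripts, so its reads can be split between them.

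The 10 genes furthest higher in B than in L held 3 chemokines (Ccl11, Ccl8 and Ccl7) and 2 matrix proteases. Mmp12, a macrophage elastase, stood at 579 CPM (B), 1.04 (L) and 2.76 (bi), and Mmp13, a collagenase, at 400, 2.15 and 2.57. Ccl11, an eosinophil-attracting chemokine, stood at 86.3 CPM (B), 0.131 (L) and 0.382 (bi), with Ccl8 at 21.5, 0.0131 and 0.062 and Ccl7 at 39.96, 0.171 and 1.55. C1s1, a complement protease, stood at 329, 3.23 and 11.8 CPM, and Ndufa4l2, a gene of the mitochondrial respiratory chain family known for hypoxic induction, at 89.4, 0.879 and 0.517. Mgll, a monoglyceride lipase, stood at 86.4, 0.866 and 9.03 CPM, Ccdc3 at 30.6, 0.144 and 0.186, and Psg18, a pregnancy-specific glycoprotein of a family of close copies, at 17.1, 0.0394 and 0.031. The bi library was far below B at all 10. It was furthest above L at Mgll and Ccl7. At C1s1, Mmp12, Ccl11 and Ccl8 it was also 2-fold or more above L, for Ccl8 on 6 reads in bi and 1 in L.

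Where bi stood between B and L was read on a linear scale on which B is 0 and L is 1, over the 1289 genes with B and L 4-fold or more apart. The median place of bi was 0.748, with an interquartile range of 0.505 to 0.918. For the 735 genes higher in L the median was 0.575 (0.404 to 0.797), and for the 554 higher in B it was 0.873 (0.753 to 0.954). Genes higher in B thus sat closer to L in bi than genes higher in L did. On the log2 scale the order turned, with medians of 0.829 for genes higher in L and 0.683 for genes higher in B, since a small remnant counts for more there. The medians for MYC were 0.497 (n = 1196) and 0.737 (n = 491), and for Her2 0.472 (n = 1206) and 0.853 (n = 450), in the same linear order as in control.

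**Figure D1:**
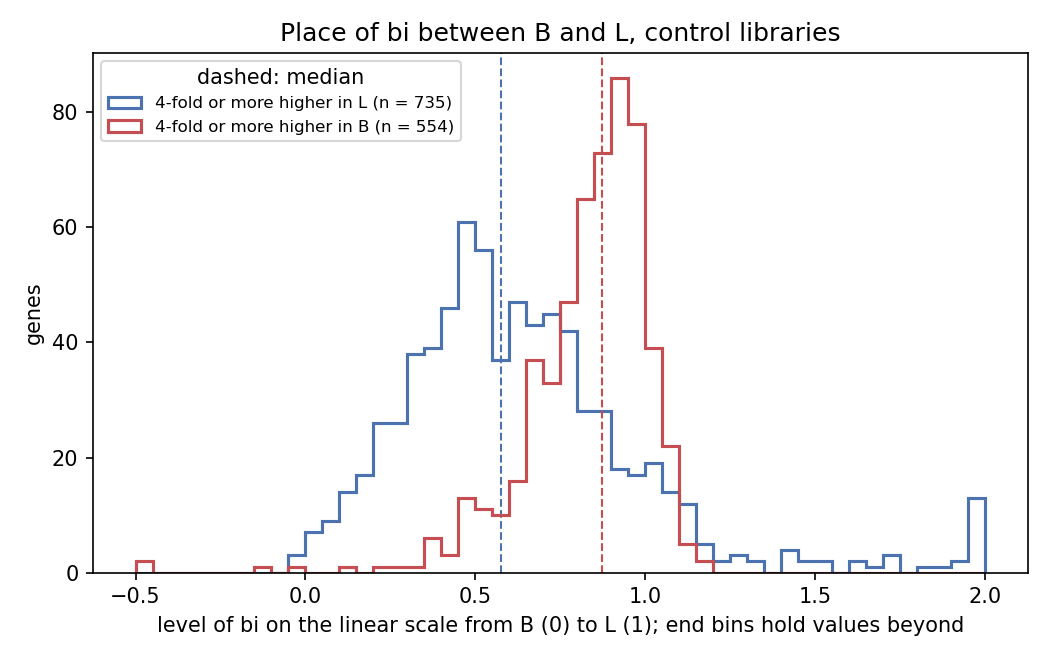
Number of genes (y axis) by the level of bi on the linear scale from B (0) to L (1) (x axis) in the control libraries, for 735 genes 4-fold or more higher in L (blue) and 554 higher in B (red). Dashed lines mark the medians of 0.575 and 0.873, and the first and last bins also hold the values beyond the axis.

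Epithelial junction genes separated B from the other libraries. These genes seal neighbouring cells together (Cdh1, claudins, occludin), sort proteins to the cell sides (Ap1m2, Rab25) or switch the epithelial program on (Grhl2, Ovol1, Ovol2). Of 34 members, all kept, 28 were 2-fold or more higher in L than in B (all genes 10.1%) and none lower (10.4%). In bi 26 were higher than in B (all genes 8.92%). The gated gene Epcam is 1 of the 28 and of the 26. Their median log2 ratio was 5.70 for L against B and 4.28 for bi against B, where all genes had 0.01 and 0.00. Cdh1, which encodes E-cadherin, stood at 2.09 CPM (B), 369 (L) and 257 (bi). Grhl2 stood at 1.54, 110 and 80.1 CPM, and Rab25 at 0.147, 36.7 and 23.9. The claudins were not alike: Cldn3 stood at 0.0183 CPM (B), 6.38 (L) and 3.52 (bi), less than 2-fold below L, while Cldn4 stood at 0.128 CPM (B), 14.4 (L) and 3.54 (bi), Cldn7 at 0.128, 12.1 and 2.79, and the tight-junction scaffold gene Tjp3 at 0.293, 32.4 and 6.68. Desmosomal Dsp (1065, 970 and 854 CPM) and tight-junction Tjp1 (166, 184 and 176) hardly separated the 3 libraries.

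Genes that encode repressors of the junction program stood the other way, with 1 exception. Zeb1 stood at 58.4 CPM (B), 3.03 (L) and 14.6 (bi), Zeb2 at 90.5, 19.6 and 30.3, and Snai1 at 10.3, 0.932 and 3.04. Snai2, by contrast, stood at 15.8 CPM in B and was higher in L (66.0) and bi (64.1). The proteins of these genes are known to bind the E-box CACCTG. The 250 bases before the start of 4 junction genes that were higher together in L and bi than in B are shown for that reason, 3 chosen with matches and 1 without, from RefSeq on GRCm38.p6 (the mm10 assembly), 5′ to 3′ on the gene's strand, with each CACCTG or its reverse complement CAGGTG in capitals. Ap1m2 lies at chr9:21312334-21312583 on the - strand with 4 matches, Lsr at chr7:30973470-30973719 on the - strand with 4, Rab25 at chr3:88548280-88548529 on the - strand with 2 and Cldn3 at chr5:134985964-134986213 on the + strand with none, coordinates being those of the 250 bases.
Ap1m2: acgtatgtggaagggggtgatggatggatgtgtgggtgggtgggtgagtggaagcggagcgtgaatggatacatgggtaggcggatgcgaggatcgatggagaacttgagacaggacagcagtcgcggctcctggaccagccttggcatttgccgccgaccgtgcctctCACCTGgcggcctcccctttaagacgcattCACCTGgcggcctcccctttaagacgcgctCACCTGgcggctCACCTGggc
Lsr: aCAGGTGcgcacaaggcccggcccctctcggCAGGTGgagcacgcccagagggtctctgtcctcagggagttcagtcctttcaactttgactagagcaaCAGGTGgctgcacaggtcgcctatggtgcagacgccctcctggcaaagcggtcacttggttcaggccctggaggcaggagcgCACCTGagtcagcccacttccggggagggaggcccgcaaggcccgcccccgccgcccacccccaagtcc
Rab25: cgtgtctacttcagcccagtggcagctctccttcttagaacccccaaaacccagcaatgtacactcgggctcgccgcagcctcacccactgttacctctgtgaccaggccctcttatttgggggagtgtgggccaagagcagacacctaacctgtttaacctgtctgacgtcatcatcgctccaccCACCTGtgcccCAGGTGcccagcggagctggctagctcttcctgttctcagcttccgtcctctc
Cldn3: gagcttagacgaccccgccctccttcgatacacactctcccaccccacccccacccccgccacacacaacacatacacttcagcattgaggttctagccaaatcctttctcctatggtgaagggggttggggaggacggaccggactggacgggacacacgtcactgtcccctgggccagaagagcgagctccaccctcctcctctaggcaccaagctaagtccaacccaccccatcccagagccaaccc
The motif, searched on both strands and with no other motif beside it, occurred in the same 250 bases of 5252 of 27025 genes with a promoter entry (19.4%). Of the 34 junction genes 21 had an entry, 13 of them with a match and 8 without, which is too few entries for a share over the list. A match is a run of letters and says nothing of binding. Ap1m2, a sorting adaptor of the basolateral side, stood at 0.055 CPM (B), 25.9 (L) and 19.98 (bi), and Lsr, a tricellular junction protein, at 0.77, 114 and 94.9.

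Luminal keratins and luminal progenitor genes were much less on in bi than the junction genes. Krt18 stood at 2.46 CPM (B), 134 (L) and 45.1 (bi), and Krt7 at 0.77, 85.1 and 11.2. The 7 members of the luminal list with B and L 4-fold apart had a median linear place of 0.323, against 0.62 for the 23 such junction genes. Of 11 luminal progenitor and alveolar genes kept, 7 were 2-fold or more lower in bi than in L (all genes 2.6%). Lcn2, an iron-scavenging lipocalin, stood at 8.70 CPM (B), 771 (L) and 124 (bi), and Ltf, which encodes lactoferrin, at 1.59, 69.3 and 6.20. Casein Csn1s1 stood at 3.20 CPM in L and at 0.055 in B and 0.0827 in bi. The median place of the 8 such genes was 0.275.

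The same side of the comparison held other secreted defence genes. Of 17 genes kept on the innate defence and complement list 9 were 2-fold or more lower in bi than in L (all genes 2.6%) and 1 was higher (2.39%). Chil1, a chitinase-like protein, stood at 3.46 CPM (B), 36.6 (L) and 5.67 (bi). Among the largest ratios of L over bi were also Ano1, a chloride channel (1.10, 29.5 and 5.30 CPM), Slc15a2, a peptide transporter (0.605, 32.4 and 6.20), and Hsd17b11, a steroid dehydrogenase (1.67, 22.8 and 4.96). On the hormone-sensing list Prlr, the prolactin receptor, stood at 1.17 CPM (B), 52.3 (L) and 11.9 (bi), while Esr1, the oestrogen receptor, was within 2-fold in all 3 at 8.43, 5.997 and 5.02.

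The genes furthest higher in bi than in L held Acta2 and Tagln, genes of smooth muscle, and several stromal genes. Acta2, which encodes smooth muscle actin, stood at 270 CPM (B), 6.47 (L) and 102 (bi), 3.97 log2 higher in bi than in L and the largest such ratio among the named genes. Tagln, an actin-binding protein of smooth muscle, stood at 32.6, 2.60 and 18.5 CPM. Adam12, a membrane protease, stood at 122, 5.92 and 66.3 CPM, Mn1, a transcriptional regulator, at 40.8, 1.09 and 14.3, and Cxcl12, a chemokine, at 83.0, 1.84 and 19.8. Ntn1, which encodes a netrin, was as high in bi (42.5 CPM) as in B (39.0) and stood at 7.23 in L. Of 21 fibroblast and matrix genes kept 11 were 2-fold or more higher in bi than in L (all genes 2.39%) and 1 lower (2.6%). Of 25 mesenchymal transition genes 10 were higher and none lower. The median log2 ratios of bi against L for these lists, in that order, were 1.04 and 0.84, where all genes had 0.00. Tnc, which encodes tenascin C, stood at 908 CPM (B), 231 (L) and 805 (bi), so it sat close to B, while Thbs2 (1141, 46.9 and 185 CPM) sat closer to L. The summed fibroblast markers were also higher in bi (28.8 CPM) than in L (20.1), and their part was not tested.

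**Figure D2:**
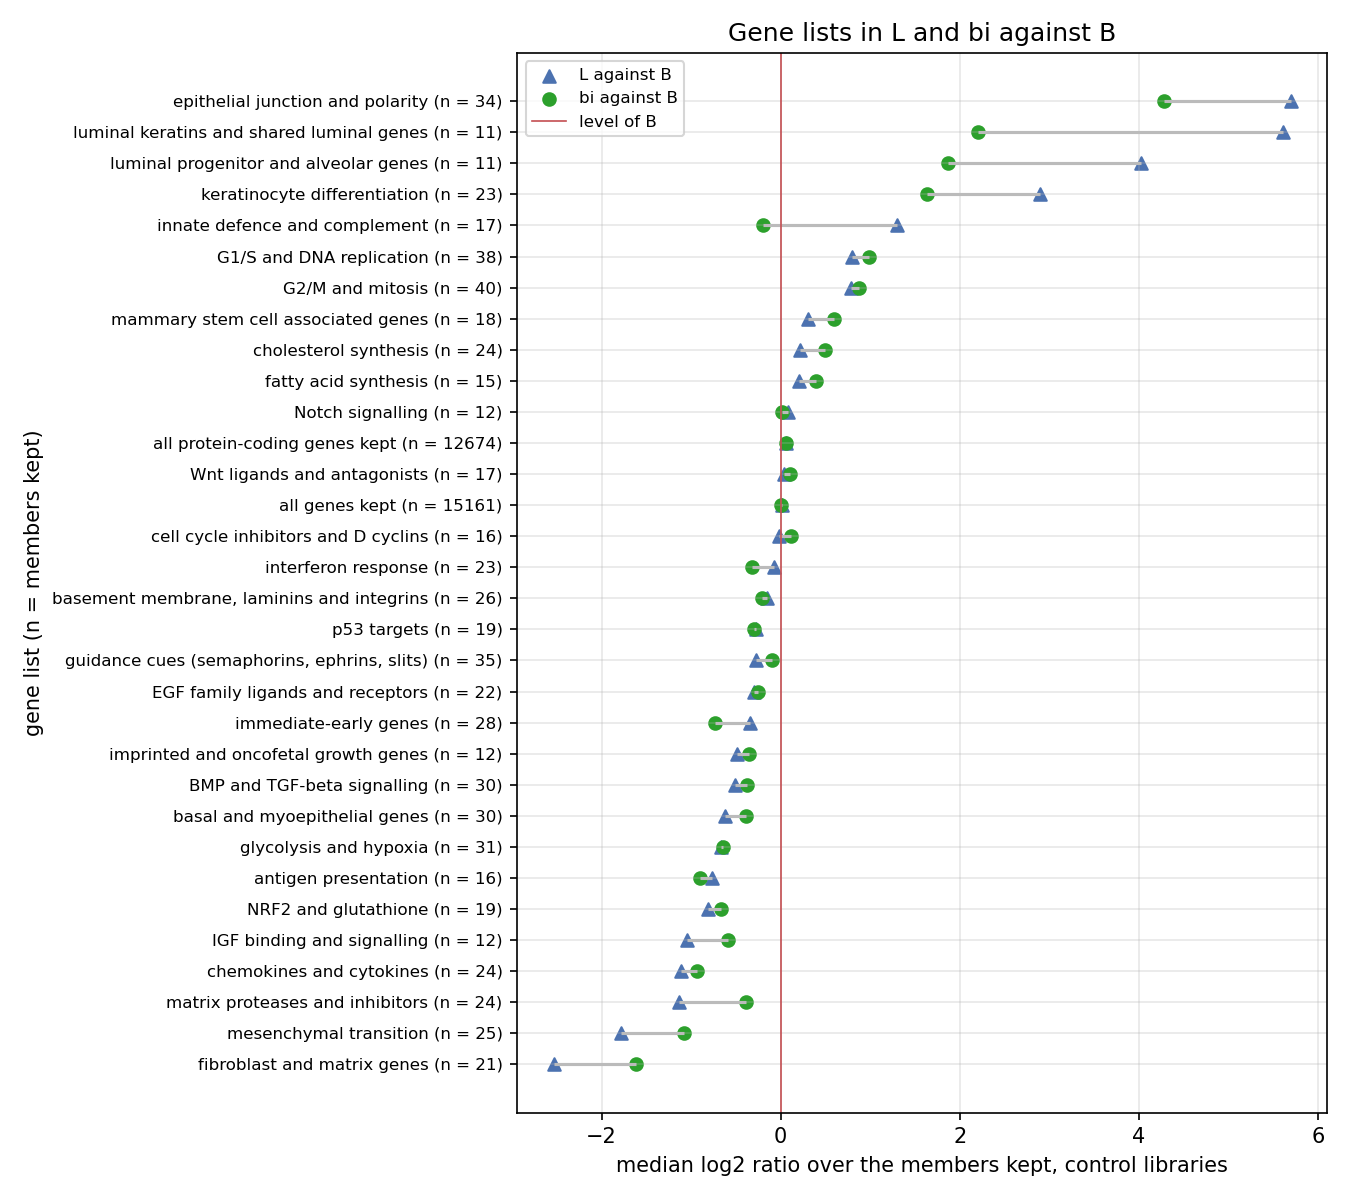
Median log2 ratio (x axis) of L against B (blue triangles) and of bi against B (green circles) in the control libraries, for each gene list with 10 or more members kept (y axis). The vertical line is the level of B, and bi lies between B and L for junction, luminal, matrix and mesenchymal genes but beyond L for immediate-early and interferon genes on 1 side and for G1/S genes on the other.

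Where bi lay outside the range of B and L was asked at the same 2-fold. Where B and L were 2-fold or more apart, bi lay between them at 2420 genes (16.0% of 15161) and outside them by less than 2-fold at 662. At 11999 genes B and L were less than 2-fold apart and bi was not 2-fold outside both. Above both it lay at 26 genes (0.171%) and below both at 54 (0.356%). Of the genes outside, the share above both, 32.5%, was 47.0% with DESeq2's size factors and 43.6% on the deposited TPM. Most were low: 15 of the 26 were under 5 CPM in bi, 45 of the 54 were under 5 CPM in the lower of B and L, and 21 and 33 were protein-coding. Several are pseudogenes or predicted genes such as Gm10259 with 390 reads in bi and none in B and L, whose estimated reads depend on how Salmon divides them among near-identical copies. A standard symbol and 10 CPM were reached by 6 genes above and 5 below. At the limit of 2-fold lay Zrsr1 inside (1.003 log2) and Gramd2 outside (0.98) above, and Egr3 inside (1.07) and Egr1 outside (0.998) below.

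**Figure D3:**
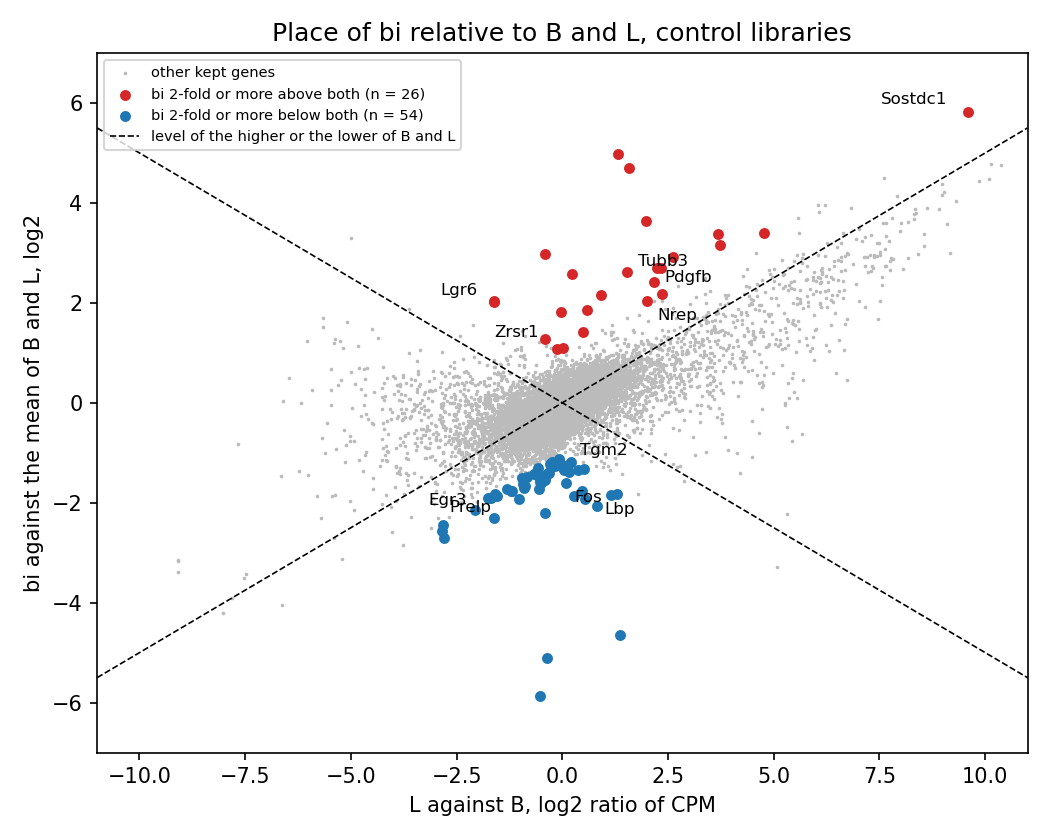
Each kept gene of the control libraries by L against B (x axis, log2 ratio) and by bi against the mean of B and L (y axis, log2). Dashed lines are the levels of the higher and the lower of B and L, red points are the 26 genes with bi 2-fold or more above both and blue points the 54 with bi 2-fold or more below both, and most other genes fall near or between the lines.

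The genes above both B and L included some of Wnt and BMP signalling. Sostdc1, a secreted antagonist of BMP and Wnt ligands (ENSMUSG00000036169.6, chr12:36314139-36318452 in mm10), had no read in B, 20.4 CPM in L and 41.5 in bi, which is 2.03-fold (1.91 to 2.15) over L and at least 754-fold over B set to 3 reads. Lgr6, an R-spondin receptor that marks stem cells of the skin (ENSMUSG00000042793.13, chr1:134983301-135105276 in mm10), stood at 14.7 CPM (B), 4.79 (L) and 34.3 (bi), 2.33-fold (2.16 to 2.52) over B and 7.15-fold (6.42 to 7.99) over L. At lower levels Wnt7a, a Wnt ligand, stood at 0.843, 1.60 and 5.27 CPM, and Wnt11, another, at 0.11, 0.814 and 2.53. Nog, the BMP antagonist noggin, stood at 0.165 CPM (B), 0.197 (L) and 1.20 (bi), on 9, 15 and 116 reads. The Wnt list thus had 3 of 17 kept members above both (17.6%, where all genes had 0.171%), and bi was the highest of the 3 at 7 of 17, where it was highest at 26.6% of all genes. The BMP and TGF-beta list had 1 of 30 above both, and bi was the highest at 6 of 30. Both lists were drawn up with earlier results of these libraries known, so the counts are not independent of them. Wnt11 and Nog also reached 1 CPM in bi alone, so they were kept only through the library in which they are high.

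Targets of these pathways differed less. Axin2, a feedback target of Wnt signalling, stood at 10.5 CPM (B), 15.0 (L) and 21.7 (bi), and Notum, another, at 33.0, 43.1 and 62.1, both highest in bi by less than 2-fold over L. Id3, a target of BMP signalling, stood at 29.0, 30.5 and 51.8 CPM, while Id1 (10.7, 36.0 and 39.4) and Id2 (33.2, 42.9 and 36.5) did not stand apart from L. Fst, which encodes the activin antagonist follistatin, stood at 28.0, 68.4 and 108 CPM. Axin2, Notum and Id2 were picked for the pathway after their values were seen.

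The other genes above both were of mixed kinds. Tubb3, a beta-tubulin best known from neurons (ENSMUSG00000062380.4, chr8:123411424-123422015 in mm10), stood at 2.91 CPM (B), 8.50 (L) and 30.7 (bi), 3.61-fold (3.31 to 3.93) over L and the furthest above both among genes at 10 CPM. Pdgfb, a platelet-derived growth factor (ENSMUSG00000000489.7, chr15:79995874-80014977 in mm10), stood at 1.72, 7.82 and 19.7 CPM, 2.52-fold (2.30 to 2.77) over L. Nrep, a small intracellular protein known from regenerating neurons, stood at 2.82, 11.3 and 23.2 CPM. Zrsr1, a splicing factor gene at 25.2, 22.98 and 50.6 CPM, has a close relative, Zrsr2, and its reads may be divided between the pair. Ret, a receptor tyrosine kinase (0.183, 2.77 and 6.80 CPM), and Smoc1, a matrix protein (0.311, 1.67 and 4.88), were placed likewise at lower levels. On total reads without a TMM factor Sostdc1 (0.97 log2 above L), Nrep (0.99) and Zrsr1 (0.96 above B) came just under 2-fold. Above both by less than 2-fold were Has2, a hyaluronan synthase (52.2, 84.0 and 147), Xylt1, which starts glycosaminoglycan chains (3.21, 14.4 and 27.9), and Itga2, a collagen-binding integrin (2.51, 5.68 and 11.2). Cntn2, an adhesion molecule, was nearly without reads in B (0.165 CPM) and stood at 12.8 in L and 22.0 in bi.

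**Figure D4:**
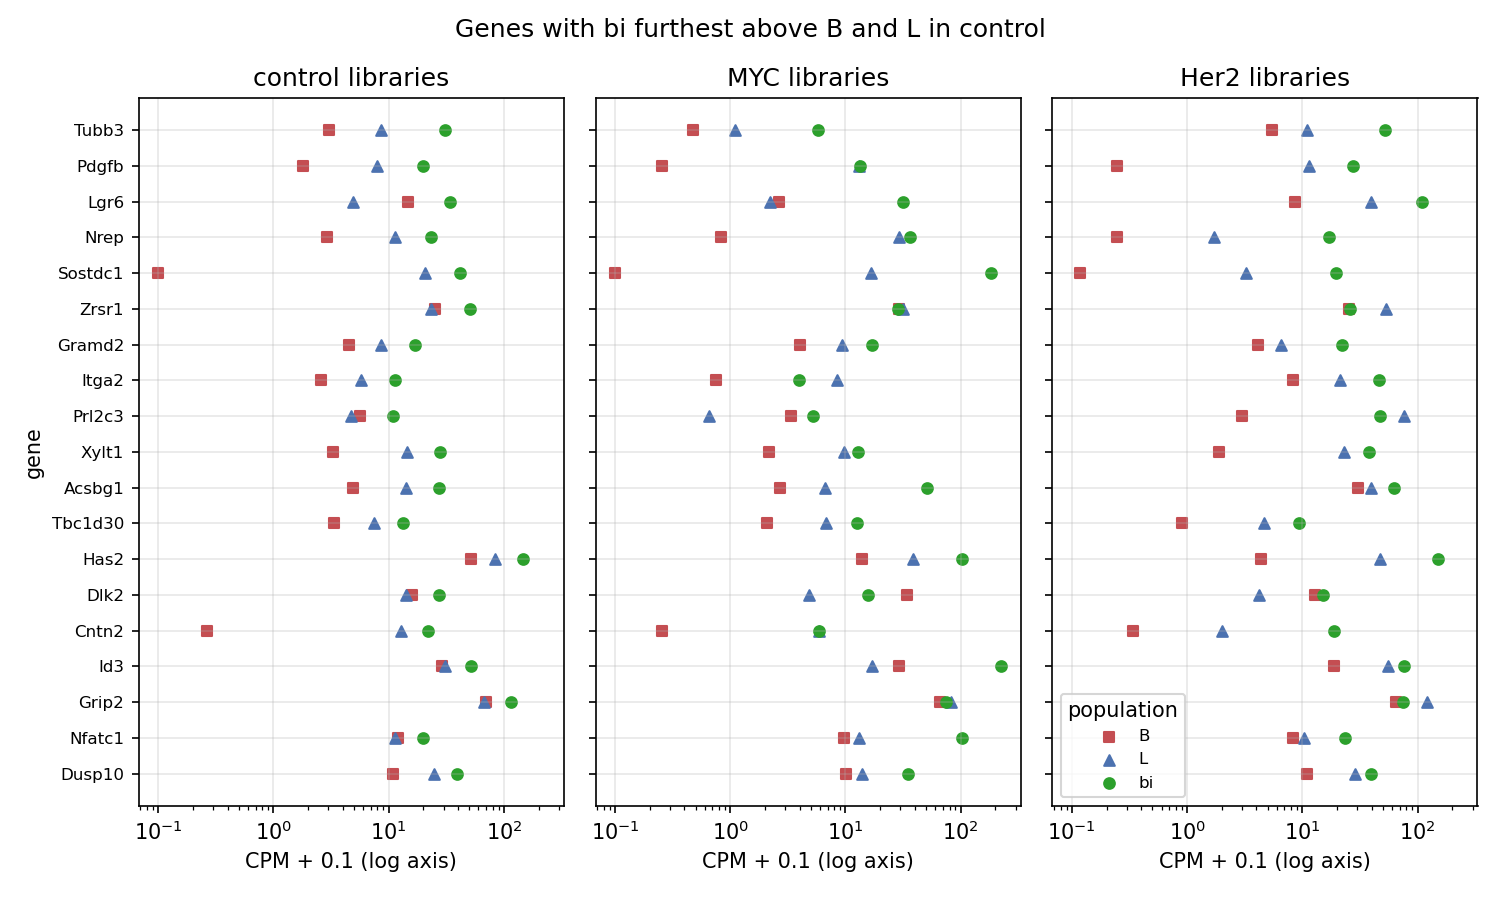
Levels in CPM + 0.1 (x axis, log scale) of 19 of the 20 genes at 10 CPM or more with bi furthest above both B and L in control (y axis), in the control, MYC and Her2 libraries, 1 library per symbol (B red squares, L blue triangles, bi green circles). The bi symbol is rightmost for all 19 genes in control, and it is rightmost in both other arms for Tubb3, Lgr6 and Sostdc1 among others.

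The MYC and Her2 libraries took no part in choosing these genes, and they are other treatments, not replicates of control. Of the 26 genes 20 were kept in the MYC arm, and bi was again 2-fold or more above both at 12 of them (60%, against 1.13% of all genes kept there). In the Her2 arm it was so at 11 of 22 (50%, against 2.74%). A gene was kept in an arm at 1 CPM in any of its libraries, so a low gene could be kept through bi alone. These shares are therefore in part set by the filter. Of the 18 kept in both arms 7 were above both in each: Tubb3, Lgr6, Sostdc1, Nog, Tshz3 (a zinc-finger transcription factor), Grik3 (a glutamate receptor subunit) and U90926. Tshz3, Grik3 and U90926 lie outside the rule for named genes and are given because they belong to this count. Under MYC Nog, Tshz3, Grik3, U90926 and Tubb3 reached 1 CPM in bi alone, and under Her2 Nog and Tshz3 did. Sostdc1 stood at 0 CPM (B), 16.7 (L) and 182 (bi) under MYC, and at 0.0184, 3.17 and 19.5 under Her2. Lgr6 stood at 2.57, 2.09 and 31.1 CPM under MYC and at 8.62, 39.6 and 109 under Her2. Tubb3 stood at 0.374, 0.993 and 5.63 CPM under MYC and at 5.40, 10.9 and 52.2 under Her2. These genes were counted because bi was above both in each arm, so its being highest there is no further result. The levels of Sostdc1, Lgr6 and Tubb3 differed between arms. Zrsr1 was within 2-fold of both in MYC and between them in Her2.

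Below both B and L stood immediate-early transcription factors. Fos, a subunit of the AP-1 factor (ENSMUSG00000021250.13, chr12:85473890-85477273 in mm10), stood at 55.1 CPM (B), 58.5 (L) and 18.5 (bi), so that B was 2.97-fold (2.80 to 3.16) and L 3.16-fold (2.99 to 3.34) over bi. Egr3, an early growth response factor, stood at 42.4, 13.1 and 6.25 CPM, and its relative Egr2 at 4.84, 3.61 and 0.889. Egr1 stood at 375 CPM (B), 217 (L) and 109 (bi), just under 2-fold below L. A list of 29 immediate-early genes was drawn up after these were seen, and so lends them no support. Of its 28 kept members bi was the lowest at 18 (where it was lowest at 26.9% of all genes), and 3 were below both by 2-fold (all genes 0.356%). The median log2 ratio of bi was -0.74 against B and -0.32 against L. Ier2 (70.8, 71.5 and 46.1 CPM), Zfp36 (24.3, 36.9 and 20.4) and Junb (210, 126 and 102) were lowest in bi by less than 2-fold. Klf2 stood the other way at 0.934, 3.08 and 4.62 CPM, and Jun (107, 158 and 130) lay between. In the MYC arm bi was the lowest at 3 of 28 (all genes 18.2%) and in the Her2 arm at 10 of 28 (all genes 29.3%).

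The EGF family and its feedback genes were read beside them, since these early genes are known targets of EGF receptor signalling. The bi library was the lowest of the 3 at 11 of 22 kept members, where it was lowest at 26.9% of all genes. It was the highest at 1, where it was highest at 26.6% of all genes. With DESeq2's size factors it was lowest at 8, while the 26.9% is with TMM. Under MYC bi was the lowest at 7 of 21 (all genes 18.2%) and under Her2 at 4 of 22 (all genes 29.3%). Dusp6, a phosphatase induced by ERK activity, stood at 326 CPM (B), 165 (L) and 106 (bi), and Spry4, a feedback inhibitor, at 2.14, 1.08 and 0.568. Hbegf, an EGF receptor ligand, stood at 47.3, 31.6 and 21.8 CPM. Erbb3, a partner of Her2, was on in L (63.0 CPM) and bi (35.5) and at 2.73 in B. Etv4 (63.9, 49.6 and 58.3) and Etv5 (37.3, 87.1 and 59.2), other targets of the pathway, lay between B and L in bi.

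A few acute-phase and interferon-induced genes were also below both, 2 of the 17 kept innate defence genes and 2 of the 23 kept interferon genes, where all genes had 0.356%. Lbp, the lipopolysaccharide-binding protein (ENSMUSG00000016024.9, chr2:158306493-158332852 in mm10), stood at 15.0 CPM (B), 26.4 (L) and 4.75 (bi), so that B was 3.16-fold (2.82 to 3.55) and L 5.54-fold (5.01 to 6.15) over bi. Hp, which encodes haptoglobin, stood at 5.55, 13.7 and 2.44 CPM, and Orm1, an acute-phase glycoprotein, at 6.82, 4.79 and 1.86. Gbp7, an interferon-induced GTPase, stood at 4.93, 4.36 and 1.92 CPM, and Ifit1, an interferon-induced RNA-binding protein, at 3.39, 3.23 and 1.51. Over the interferon list bi was the lowest of the 3 at 15 of 23 kept members (all genes 26.9%), or at 13 with DESeq2's size factors. It was the highest at none (all genes 26.6%), or at 2 with those factors, and 2 members were below both by 2-fold. The median log2 ratio of the list was -0.32 for bi against B and -0.58 for bi against L. Levels were low throughout, with summed values of 239 CPM (B), 241 (L) and 199 (bi) over all 35 members. Irf1, an interferon-induced transcription factor, lay between B and L in bi at 42.5, 30.0 and 37.5 CPM. In the MYC arm bi was the lowest at 13 of 23 members (all genes 18.2%) and in the Her2 arm at 10 of 23 (all genes 29.3%).

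Single genes of other kinds were also below both. Tgm2, a transglutaminase that crosslinks matrix proteins, stood at 29.3 CPM (B), 32.0 (L) and 12.8 (bi). Prelp, a proteoglycan of basement membranes, stood at 27.6, 12.1 and 5.34 CPM. Notch3 stood at 7.53, 8.45 and 3.04 CPM and was below both, and Notch1 at 205, 214 and 116, lowest in bi by less than 2-fold. Notch2 (286, 222 and 214 CPM) and the ligands Dll1 (76.1, 76.1 and 77.4) and Jag2 (317, 340 and 338) were near level, while Jag1 was 440 CPM (B), 79.6 (L) and 107 (bi). Of the 12 Notch genes kept 1 was below both (0.356% of all genes were) and none above (0.171% were). Their targets Hes1 (66.4, 93.9 and 77.8 CPM), Hey1 (0.403, 6.96 and 3.37) and Nrarp (5.19, 14.8 and 7.54) lay between B and L in bi. Tgfbr3, a TGF-beta co-receptor, stood at 183, 142 and 84.9 CPM, and Il1rn, an antagonist of the interleukin-1 receptor, at 17.8, 17.7 and 9.50.

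**Figure D5:**
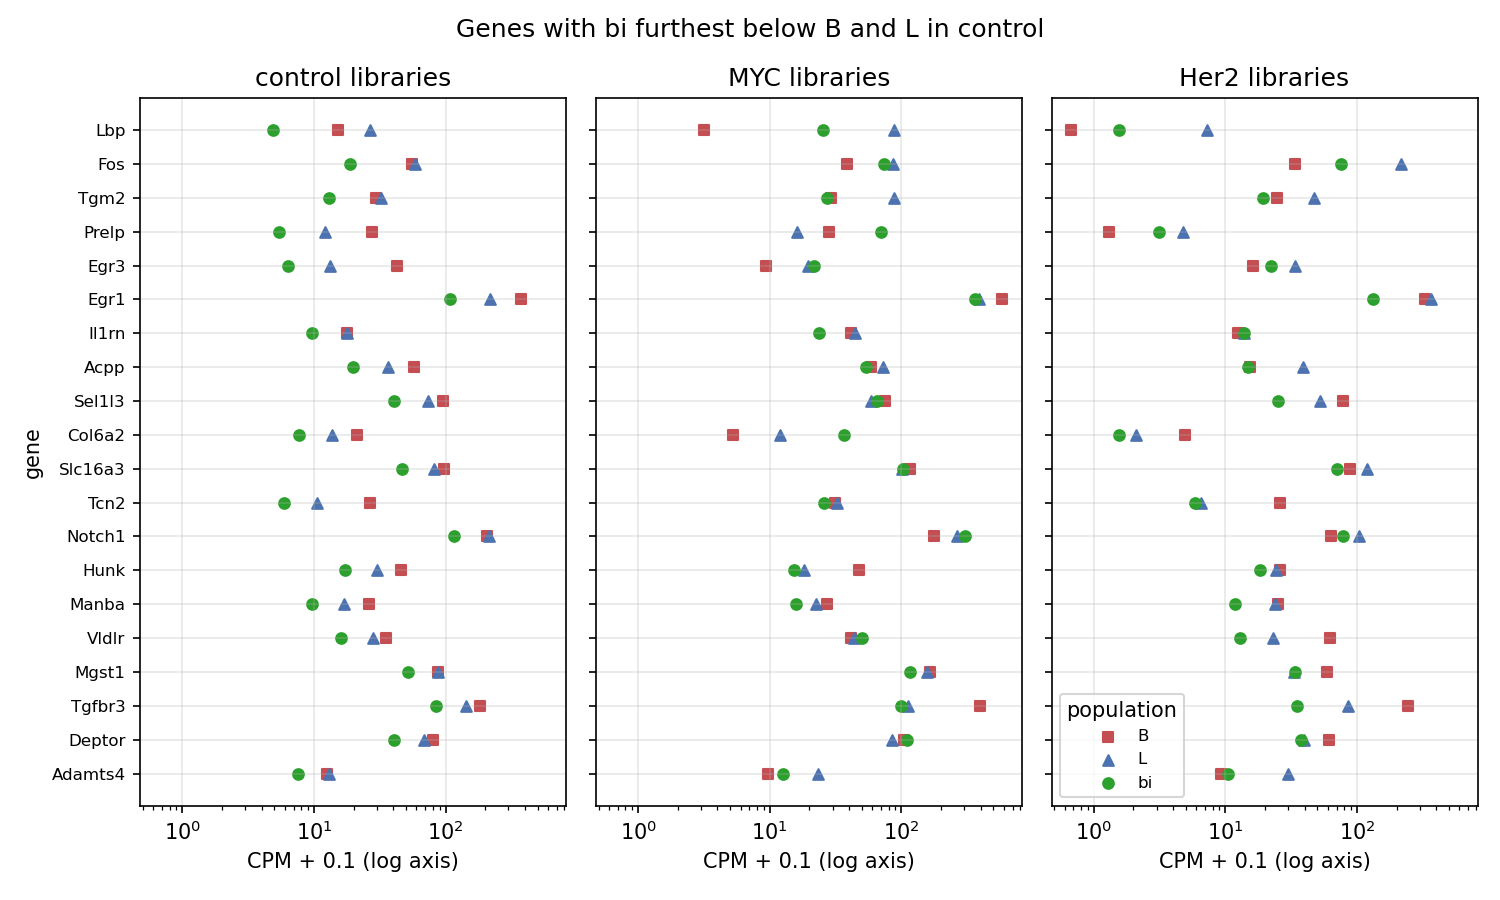
Levels in CPM + 0.1 (x axis, log scale) of the 20 genes with bi furthest below both B and L in control and 10 CPM or more in the lower of them (y axis), in the control, MYC and Her2 libraries, 1 library per symbol. The bi symbol is leftmost for all 20 genes in control, and for Fos, Egr3, Lbp and Prelp it is not leftmost in either other arm.

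Few of the genes below both were placed so in the other arms. In the MYC arm 2 of the 46 kept (4.35%, against 0.224% of all genes) and in the Her2 arm 4 of 40 (10%, against 1.57%) were below both, and none of 38 kept in both arms was below both in each. The 2 under MYC were Gbp7 and Gbp4, and the 4 under Her2 included Notch3 and Serpina3n. Fos stood at 38.9 CPM (B), 86.5 (L) and 73.4 (bi) under MYC and at 33.8, 216 and 75.8 under Her2, between B and L in both. Egr3 was not lowest in bi in either arm. Egr1, just under 2-fold in control, was lowest in bi in both. It stood at 586, 389 and 362 CPM under MYC and at 325, 367 and 132 under Her2, where bi was below both by 2-fold. Lbp stood at 3.06, 87.7 and 25.1 CPM under MYC and at 0.570, 7.08 and 1.44 under Her2. Prelp was above both under MYC, at 28.2, 15.9 and 70.2 CPM.

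Cell cycle and cholesterol genes differed little between bi and L, and the cell cycle lists were lower in B by their medians. Of 38 G1/S and DNA replication genes, all kept, bi was the highest of the 3 at 35, where it was highest at 26.6% of all genes. Of the 38, 19 were 2-fold or more higher in bi than in B (all genes 8.92%), against 8 in L (all genes 10.1%). Their median log2 ratio was 0.98 for bi against B and 0.20 for bi against L. Mcm3, a subunit of the replicative helicase, stood at 107 CPM (B), 262 (L) and 300 (bi), Uhrf1, which links replication to DNA methylation, at 117, 284 and 327, and Ccne1, a cyclin of the G1 to S step, at 12.2, 20.6 and 27.6. Of 40 G2/M genes bi was highest at 30, but at 24 on total reads without a TMM factor, and the median against L was 0.07. Ccna2 stood at 96.8, 327 and 293 CPM and Mki67 at 522, 969 and 898, both higher in L than in bi. No member of either list passed 2-fold between bi and L.

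Of 24 cholesterol synthesis genes bi was highest at 20 (all genes 26.6%), or at 17 on total reads. Their median log2 ratio was 0.50 for bi against B and 0.23 for bi against L. Mvd (24.0, 27.1 and 40.0 CPM), Nsdhl (86.3, 74.5 and 112) and Tm7sf2 (6.78, 8.69 and 12.4), enzymes of the pathway, were highest in bi. Under MYC bi was the highest at 17 of 24 (all genes 20.7%) and under Her2 at 18 of 24 (all genes 31.2%). For the G1/S list the order was not kept. Under MYC bi was highest at 3 of 38 (all genes 20.7%) and lowest at 8 (18.2%). Under Her2 it was highest at 26 (31.2%) and lowest at 2 (29.3%).

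Of 30 basal and myoepithelial genes kept, 6 were 2-fold or more higher in bi than in L (all genes 2.39%) and 1 was lower (2.6%). Beside Acta2 and Tagln these held Sparc, a matrix glycoprotein, at 1044 CPM (B), 143 (L) and 508 (bi), and Igfbp2, a binding protein of insulin-like growth factors, at 80.2, 6.68 and 29.8. Lama3, which encodes a laminin chain of the hemidesmosome, was highest in bi (144, 131 and 217 CPM), while Lamb3, another such chain, stood at 81.4, 461 and 407. Itgb4, the integrin of hemidesmosomes, stood at 636, 975 and 1169 CPM. Oxtr, the oxytocin receptor of contractile cells, was 14.8 CPM in B and 3.54 in bi, near the 2.14 of L, and Mylk, the myosin light chain kinase, was lowest in bi at 2.64, 1.86 and 1.05, so contractile genes did not all stand higher in bi. Among mammary stem cell associated genes Procr, the protein C receptor, stood at 40.3, 13.8 and 21.0 CPM, Bcl11a at 0.33, 23.4 and 22.3, and Bcl11b at 51.3, 17.4 and 33.5. Of the 18 kept 1, Lgr6, was above both (all genes 0.171%), and Lgr5 was under 1 CPM in all 3 libraries.

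Keratinocyte genes were for the most part higher in L and bi than in B. Of 23 kept 15 were 2-fold or more higher in L than in B (all genes 10.1%) and 16 in bi than in B (all genes 8.92%). In each 4 were lower (all genes 10.4% and 9.97%). Between bi and L 2 were higher in bi (all genes 2.39%) and 5 lower (2.6%). Dsg3, a desmosomal cadherin of stratified epithelium, stood at 5.37 CPM (B), 298 (L) and 268 (bi), and Lypd3 at 0.879, 45.9 and 45.1. Krt6a, a keratin of activated keratinocytes, stood at 198, 372 and 477 CPM, and shares long stretches with Krt6b, so reads may be divided between them. Krt16, its usual partner, stood the other way at 61.9, 13.3 and 28.3 CPM, as did Sprr1b at 41.8, 12.9 and 19.3. Klk10, a secreted protease, stood at 0.879, 55.4 and 17.7 CPM, between B and L.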

How the data were processed

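RNA libraries were stranded and ribosome-depleted from 200 ng of total RNA, per the labels' protocols, while the molecule label reads polyA RNA. The authors deposited an estimated count per gene, a TPM value and gene lengths, per the file headers, made with Salmon 0.9.1 on mm10, per the submitters' processing notes. The annotation release is not given in the sources used here. Symbols were joined by Ensembl identifier to GENCODE (53544 genes with the version, 563 without it, 174 unmatched).

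The deposited estimated counts were rounded, scaled with TMM over the 3 control libraries (edgeR 4.0.16, R 4.3.3) and turned into log2 CPM with a prior count of 2. The deposited TPM, with a pseudocount of 0.1, served as an alternative. With 1 library per group no test was run. A library without reads was set to 3 reads, and such folds are lower bounds. The MYC and the Her2 libraries were each scaled by themselves. The placing of genes was tested on simulated data.

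Members and lists were chosen with earlier results of these data known. The rule named Myc, Erbb2, Ly6a and Epcam, the 20 genes with bi furthest above and below both at 10 CPM or more, the 10 largest ratios each way per pair of libraries, the 5 nearest the midpoint, and up to 4 members each way per list, with any member of a list above or below both. Predicted genes, clones and pseudogenes were left out. A few genes that the rule or the lists hold are not reported here. Genes named outside it (Lsr, Zeb2, Snai1, Axin2, Notum, Id2, Ret, Smoc1, Hbegf, Ier2, Zfp36, Junb, Jun, Jag2, Orm1, Mki67, Tshz3, Grik3, U90926, Gm10259, Gbp4, Serpina3n) were chosen after their values were seen. Alternatives were other scalings, filters, folds and prior counts, and, added after seeing the data, protein-coding genes only and libraries thinned to 46.9 M reads.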

Additional observations from a re-analysis of the deposited data

How the results depend on the processing

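No paired analysis was possible because each population and arm has 1 library and no result comes from a test. Filters and thresholds set the counts. With at least 5 CPM required, bi was above both at 11 genes, below both at 12 and between at 1564, and 1942 genes separated L from B, 1679 bi from B and 398 bi from L. Without a filter these numbers were 420, 709, 6597, 8745, 8394 and 3797. At 4-fold they were 6, 3, 1128, 1289, 898 and 143, and at 1.5-fold 105, 383, 3958, 5890, 5885 and 1941. On the deposited TPM 35 genes were below both in place of 54, and 29 of the 54 were among them, while 20 of the 26 above both were among its 27. DESeq2's size factors gave 39 above, which held all 26, and 44 below, and total reads gave 21 and 61. The median linear place of bi was 0.729 on total reads, 0.743 on TPM and 0.708 without a filter, in place of 0.748. The cause was not tested.

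With libraries thinned to 46.9 M reads bi was above both at 32 genes and below both at 72, and among protein-coding genes alone at 21 and 33. Of the 40 genes named above or below both, none changed side under any of 5 scalings, and 9 to 16 were past 2-fold, where 11 were with TMM over the controls. Genes under 5 CPM rest on few reads at 54.0 to 98.9 M reads per library, and with 1 library per group the spread between replicates is unknown.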
